A study of Homo sapiens with 24 samples.

Results

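The mitochondrial ribosomal protein genes examined here were the protein-coding genes of the hg38 RefSeq annotation whose symbol is MRPL or MRPS followed by a number, with or without a letter. The rule found 77 genes among 20033 protein-coding genes on chromosomes 1 to 22, X and Y, of which 49 were MRPL and 28 were MRPS. A gene was counted as having a Myc peak when a peak of a library reached within 1 kb of either end of its gene span. The rule uses gene names only, not measured values.

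Mitochondria translate the few messenger RNAs of their own genome on a dedicated ribosome, whose large subunit joins amino acids and whose small subunit decodes the message. Its ribosomal RNAs are made inside the organelle, whereas every one of its proteins is encoded in the nucleus, translated in the cytosol and imported. MRPL symbols name proteins of the large subunit and MRPS symbols mostly proteins of the small subunit, and the products of its translation are core subunits of the respiratory chain. Myc is a transcription factor that, with its partner MAX, binds E-box DNA and is known for acting on genes of ribosome production and mitochondrial function.

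CUT&Tag with a Myc antibody, which directs a transposase to cut and tag the DNA where Myc sits, was done on MIA PaCa-2 cells, a human pancreatic cancer line. Both libraries come from cells with a doxycycline-inducible (teton) MED30 expression construct. The study asked how overexpression of MED30, one of the Mediator subunits that pass signals from transcription factors to RNA polymerase II, affects where other factors bind. One library was titled as 5 days with doxycycline and the other as without doxycycline, although the protocol in the labels speaks of 2 days. There was 1 library per condition, so no difference between the conditions has a replicate check and no test between them was made. No IgG library was used here to remove background peaks, so some peaks can be background. Whether doxycycline itself, the induced MED30 or the depth of a library moved a value cannot be told apart.

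The day 5 list held 6953 peaks and the list without doxycycline 3559, of which 6727 and 3472 lay on chromosomes 1 to 22, X and Y. The number of fragments stacked over a peak's summit was recovered from the deposited values, and its median was 12 at day 5 (quartiles 8 and 17) and 11 without doxycycline (8 and 15). The total reads of the libraries are not in the lists, and fragment numbers were not scaled for depth. Intervals on fragments are exact Poisson intervals at 95% and cover counting error only, without molecular identifiers. Intervals on shares are exact binomial (Clopper-Pearson) intervals at 95% that treat genes as separate draws.

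The peaks at these genes mostly lay close to their starts, so the DNA just before the start is shown for 3 members with peaks in both libraries. MRPL48 had the highest-ranked peak of all members in both lists, MRPL18 shares its promoter region with the divergent chaperonin gene TCP1, and MRPS18B had the highest-ranked day 5 peak among the MRPS members. The stretches are the 150 bases before the start in the RefSeq promoter table (GRCh38.p14), 5′ to 3′ on the gene's strand, at chr11:73787724-73787873 (plus strand), chr6:159789662-159789811 (plus strand) and chr6:30617690-30617839 (plus strand). Capitals mark a match on either strand to an E-box or its variant, an NRF1 core or an ETS-type site, 4 motifs searched in all promoters and spelled out with their counts. The first 2 stretches hold none. Most summits of the 3 genes lay outside these stretches, so the letters do not describe the DNA under them. They lay 168 bp (day 5) and 35 bp (without doxycycline) downstream of the start in MRPL48, and 146 and 139 bp in MRPL18. In MRPS18B they lay at -277 and -87 bp, and only the last is inside a stretch.
MRPL48: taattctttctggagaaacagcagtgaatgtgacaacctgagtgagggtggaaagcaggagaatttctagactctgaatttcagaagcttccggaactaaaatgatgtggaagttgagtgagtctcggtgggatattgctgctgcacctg
MRPL18: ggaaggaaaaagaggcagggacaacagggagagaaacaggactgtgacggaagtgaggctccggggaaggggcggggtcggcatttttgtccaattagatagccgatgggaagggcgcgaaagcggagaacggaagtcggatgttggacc
MRPS18B: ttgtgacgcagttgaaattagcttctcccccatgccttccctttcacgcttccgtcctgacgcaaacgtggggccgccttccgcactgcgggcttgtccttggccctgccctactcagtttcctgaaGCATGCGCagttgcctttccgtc
The capitals in the MRPS18B stretch match the core recognised by NRF1, a regulator of nuclear genes for mitochondrial proteins. The centre of that match lay 257.5 bp from the day 5 summit and 67.5 bp from the summit without doxycycline. A match is a run of letters, not a shown binding site.

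Mitochondrial ribosomal protein genes carried Myc peaks more often than protein-coding genes at large in both libraries. At day 5, 46 of the 77 genes had a peak (59.7%, interval 47.9% to 70.8%), beside 27.4% of all protein-coding genes. Without doxycycline, 25 of the 77 had a peak (32.5%, interval 22.2% to 44.1%), beside 14.4% of all protein-coding genes. Both intervals lie above the share of all coding genes in the same library. The day 5 list had peaks at 1.84 times as many members as the list without doxycycline, and at 1.89 times as many coding genes.

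Of the 77 genes, 21 had a peak in both lists (27.3%), beside 12.9% of all coding genes. A further 25 were listed at day 5 only (32.5%), beside 14.5% of all coding genes. Another 4 were listed without doxycycline only (5.19%, interval 1.43% to 12.8%), beside 1.57% of all coding genes, which that interval holds. The remaining 27 had a peak in neither list. Of the members with a peak without doxycycline, 84.0% also had one at day 5, beside 89.2% of all coding genes with a peak without doxycycline. Of the members with a day 5 peak, 45.7% also had one without doxycycline, beside 47.0% of all coding genes with a day 5 peak. Both shares were near those of all coding genes.

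**Figure D1:**
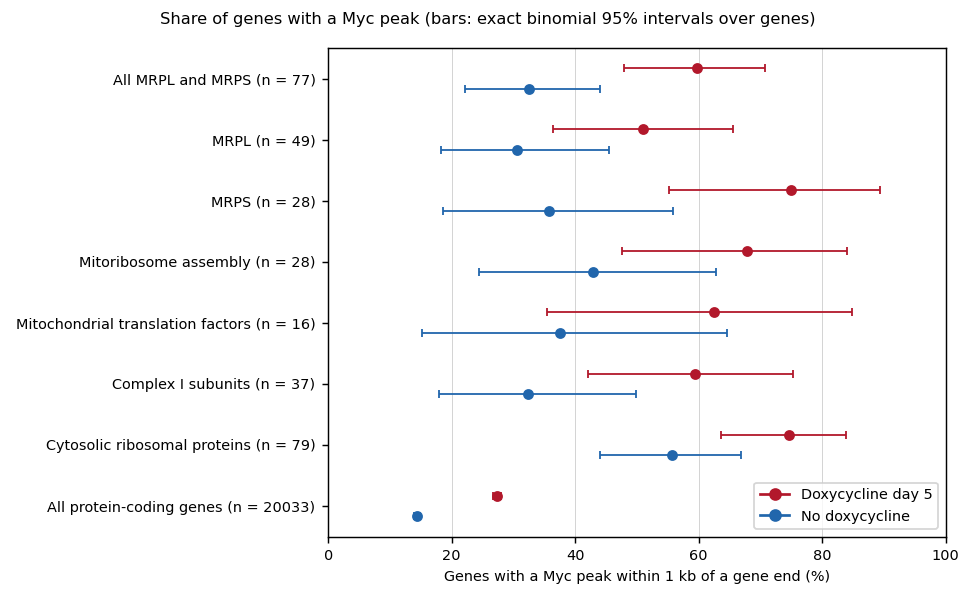
Share of genes with a Myc peak within 1 kb of a gene end (x axis, %) at day 5 of doxycycline (red) and without doxycycline (blue), for mitochondrial ribosomal protein genes and comparison lists; bars are exact binomial 95% intervals over genes. The 77 members stand at 59.7% and 32.5%, all protein-coding genes at 27.4% and 14.4%, and the cytosolic ribosomal protein genes above the members at 74.7% and 55.7%.

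The genes of the large subunit had a lower share with a peak than those of the small subunit at day 5. There, 25 of 49 MRPL genes had a peak (51.0%, interval 36.3% to 65.6%), against 21 of 28 MRPS genes (75.0%, interval 55.1% to 89.3%). The difference was -24.0 percentage points, and the 2 intervals overlap. Without doxycycline, 15 of 49 MRPL genes (30.6%, interval 18.3% to 45.4%) and 10 of 28 MRPS genes (35.7%, interval 18.6% to 55.9%) had a peak, a difference of -5.10 points. The MRPL share lay below the MRPS share at day 5 in 9 of 9 other ways of counting, and without doxycycline in 8 of 9. The exception was the higher-ranked 50% of that list (24.5% of MRPL against 14.3% of MRPS). These ways recount the same genes in the same libraries, and several gave identical day 5 counts. Their number is therefore no support for a difference.

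Both groups had most of their peaks in both lists or at day 5 only. Among MRPL genes, 11 had a peak in both lists, 14 at day 5 only, 4 without doxycycline only and 20 in neither. Among MRPS genes, 10 had a peak in both, 11 at day 5 only, none without doxycycline only (interval up to 12.3%, which holds the 1.57% of all coding genes) and 7 in neither. When the day 5 list was cut by rank to the 3472 peaks of the other list, 16 MRPL and 13 MRPS genes had a day 5 peak. Without doxycycline there were 15 and 10, and the shares of all coding genes were 15.7% (day 5) and 14.4%. Then 5 MRPL and 3 MRPS genes were listed without doxycycline only, a share not counted for all coding genes.

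Median fragment numbers were higher for MRPL than for MRPS. The median peak at a MRPL gene had 13 summit fragments at day 5 and 12 without doxycycline, and at a MRPS gene 10 and 8. All coding genes with a peak had medians of 12 and 11. In each list, 5 MRPL genes and no MRPS gene held one of the 500 highest-ranked peaks, ranked by the deposited −log10 q-value, beside 533 (day 5) and 517 (without doxycycline) of the 20033 coding genes. Against that background the absence of MRPS genes there is not a result. The strongest MRPL peaks had 37 fragments at day 5 and 40 without doxycycline, whereas no MRPS peak had more than 19 and 13.

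Symbols and subunits do not match throughout. MRPS30 and MRPS18A carry MRPS symbols but are proteins of the large subunit in the assembled particle, and counting them there gave 26 of 51 large subunit genes (51.0%) and 20 of 26 small subunit genes (76.9%) with a day 5 peak. MRPS30 had 7 fragments in both libraries, and MRPS18A had no peak in either.

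Members with a counterpart in the bacterial ribosome and members found only in mitochondria had peaks at like shares. Of 45 genes with a bacterial counterpart, 27 had a peak at day 5 (60.0%) and 15 without doxycycline (33.3%). Of 32 mitochondria-specific genes, MRPS30 and MRPS18A included, 19 had a peak at day 5 (59.4%) and 10 without doxycycline (31.2%). Within the bacterial-type genes, 13 of 29 of the large subunit (44.8%, interval 26.4% to 64.3%) and 14 of 16 of the small subunit (87.5%, interval 61.7% to 98.4%) had a day 5 peak, with intervals that overlap. Without doxycycline the same groups had 9 of 29 (31.0%) and 6 of 16 (37.5%). Within the mitochondria-specific genes, 12 of 20 large subunit genes and 6 of 10 small subunit genes had a day 5 peak, 60.0% of each, leaving out MRPS30 and MRPS18A.

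**Figure D2:**
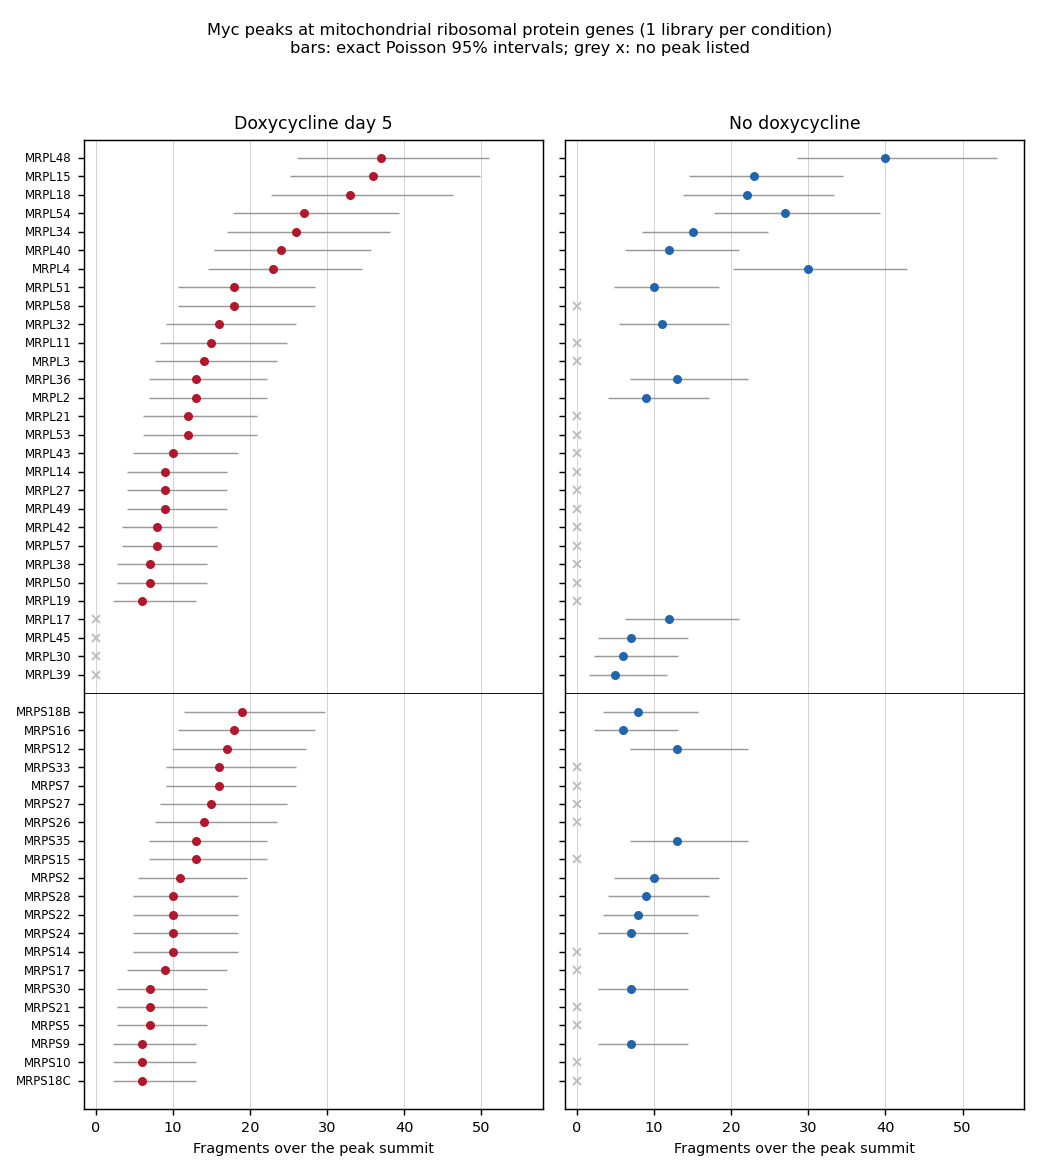
Fragments over the summit of the strongest peak at each of the 50 MRPL and MRPS genes with a peak in a list (x axis, fragments; MRPL above the line, MRPS below), at day 5 (left, red) and without doxycycline (right, blue); bars are exact Poisson 95% intervals and a grey x marks a gene with no peak listed. MRPL48 reaches 37 and 40 fragments, while the MRPS genes stay at or under 19 and 13.

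MRPL48, a mitochondria-specific protein of the large subunit, stood first among the members. Its day 5 peak at chr11:73787626-73788682 had 37 fragments (interval 26.1 to 51.0), and its peak without doxycycline at chr11:73787697-73788327 had 40 (28.6 to 54.5). They ranked 210 and 63 in their lists, and the deposited folds over the local background were 10.9 and 11.8. The 2 libraries gave it nearly the same fragment number, although the day 5 library gave more fragments at most coding genes. Its summits lay 168 bp (day 5) and 35 bp (without doxycycline) downstream of the start, with no other coding gene end within 1 kb of the peak.

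MRPL15, on chromosome 8, is the counterpart of a bacterial large subunit protein. It had 36 fragments at day 5 (25.2 to 49.8) and 23 without doxycycline (14.6 to 34.5). MRPL18, likewise of bacterial type, had 33 fragments at day 5 (22.7 to 46.3) and 22 without doxycycline (13.8 to 33.3). Both genes had more fragments at day 5, with intervals that overlap. The MRPL18 peaks, at chr6:159789731-159790464 (day 5) and chr6:159789703-159790356 (without doxycycline), also reach TCP1, a subunit gene of the cytosolic chaperonin whose start lies 210 bp away on the other strand, so they cannot be given to one gene.

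MRPL34, MRPL54 and MRPL4 followed among the MRPL genes of both lists by day 5 rank, at 425, 474 and 799, and all lie on chromosome 19. MRPL34 had 26 fragments at day 5 (17.0 to 38.1) and 15 without doxycycline (8.40 to 24.7), at chr19:17292519-17292952 and chr19:17292532-17293003. MRPL54 had 27 fragments in each library (17.8 to 39.3), at chr19:3762562-3763076 and chr19:3762623-3763012. MRPL4, whose protein lines part of the exit tunnel for the new chain, had 23 fragments at day 5 (14.6 to 34.5) and 30 without doxycycline (20.2 to 42.8), at chr19:10251846-10252410 and chr19:10251846-10252296. The day 5 library was thus higher at MRPL34, equal at MRPL54 and lower at MRPL4, in each case within overlapping intervals. Ends of ABHD8 and APBA3 lie within 1 kb of the MRPL34 and MRPL54 peaks, whereas the MRPL4 peak touches no other coding gene end.

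Among the small subunit genes in both lists, MRPS18B led at day 5. It is 1 of the paralogs MRPS18A, MRPS18B and MRPS18C, which take different places in the particle. It had 19 fragments at day 5 (11.4 to 29.7) and 8 without doxycycline (3.45 to 15.8), at chr6:30617390-30617886 and chr6:30617490-30617888, ranks 765 and 1849. Its peaks also reach PPP1R10, whose start lies 597 bp away on the other strand.

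MRPS12, a protein of the decoding centre, had 17 fragments at day 5 (9.90 to 27.2) and 13 without doxycycline (6.92 to 22.2). Both of its summits lay nearer the end of SARS2, the mitochondrial seryl-tRNA synthetase gene, whose start is 181 bp away on the other strand, so the peak may belong to either. MRPS16 had 18 fragments at day 5 (10.7 to 28.4) and 6 without doxycycline (2.20 to 13.1), a ratio of 3.00, the highest of the members in both lists. MRPS22, a mitochondria-specific protein whose mutations cause a mitochondrial disease, had 10 (4.80 to 18.4) and 8 (3.45 to 15.8). All 4 MRPS genes had more fragments at day 5, and in none of them are the intervals separate. They were chosen by day 5 rank, which favours higher day 5 values. Of all 10 MRPS genes in both lists, 7 were higher at day 5, 2 equal and 1 lower, beside 2102 higher of 2580 coding genes.

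Across the 21 members in both lists, summit fragments summed to 387 at day 5 and 300 without doxycycline, a ratio of 1.29. Over the 2580 coding genes in both lists the ratio of sums was 1.44, and the median ratio per gene was 1.31 for the members and 1.43 for all. Of the 21 members, 14 were higher at day 5, 4 equal (MRPL36, MRPL54, MRPS30 and MRPS35) and 3 lower (MRPL4, MRPL48 and MRPS9). Of the 2580 coding genes, 2102 were higher at day 5. The intervals of the 2 libraries overlap for all 21 members. The median ratio was 1.45 for the 11 MRPL genes and 1.18 for the 10 MRPS genes, beside 1.43 for all coding genes. The ratio of sums ran the other way, 1.25 for MRPL and 1.375 for MRPS, so the order depends on the measure. No difference was tested.

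At most of the 21 members in both lists, the peaks of the 2 libraries overlapped. Both peaks had to reach within 1 kb of an end of the same gene, which favours overlap. No share of all coding genes was counted beside this. For 20 of the 21 genes the day 5 peak overlapped the peak without doxycycline, and the summits lay a median of 88 bp apart, within 200 bp for 14 genes. The exception was MRPS9, of the small subunit, with 6 fragments at day 5 and 7 without doxycycline and summits 585 bp apart on either side of its start.

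The genes listed at day 5 only began further down the day 5 list, at rank 1115. MRPL58, a peptidyl-tRNA hydrolase built into the large subunit that releases stalled chains, led them with 18 fragments (10.7 to 28.4) at chr17:75012355-75012961. MRPL11, at the base of the factor-binding stalk, had 15 fragments (8.40 to 24.7) at chr11:66438640-66439075. Without doxycycline the nearest peaks to MRPL58 and MRPL11 lay 12.7 and 41.5 kb away. MRPL3 had 14 fragments (7.65 to 23.5) with its nearest peak without doxycycline 714 kb away. MRPL21 and MRPL53 had 12 each (6.20 to 21.0), and the MRPL21 summit lay nearer IGHMBP2.

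Of the small subunit genes at day 5 only, MRPS33 and MRPS7 had 16 fragments each (9.15 to 26.0), at chr7:141014644-141015082 and chr17:75261637-75262262. MRPS7 belongs to the head of the small subunit and has a bacterial counterpart, whereas MRPS33 is mitochondria-specific. MRPS27, which holds pentatricopeptide repeats of the kind that bind RNA, had 15 fragments (8.40 to 24.7) in a peak whose summit lay nearer PTCD2. These 8 genes lay between ranks 1115 and 2842 of the day 5 list. The other 17 genes at day 5 only had 6 to 14 fragments.

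The 4 genes listed without doxycycline only were MRPL17, MRPL45, MRPL30 and MRPL39. With equal numbers of peaks in the lists, 3 MRPS genes were among 8 such genes, a count without a share of all coding genes beside it. MRPL17, of bacterial type, had 12 fragments (6.20 to 21.0) at chr11:6683097-6683504, rank 948, and its nearest day 5 peak lay 67.7 kb away. MRPL45, which anchors the ribosome at the inner membrane, had 7 (2.81 to 14.4), MRPL30 had 6 (2.20 to 13.1) and MRPL39 had 5 (1.62 to 11.7), with ranks of 2480, 2854 and 3162. Apart from MRPL17 these are peaks of few fragments, in the weaker part of a list of 3472. MRPL45 is uncertain. Its pseudogene MRPL45P2, also on chromosome 17, has a peak in both lists, and reads of near-identical copies can be placed at either. Whether that holds for the MRPL45 peak was not tested.

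Of the 27 genes with a peak in neither list, several have well-known roles. MRPL10 and MRPL12 form the stalk that recruits translation factors, and MRPL12 is also known to bind the mitochondrial RNA polymerase. Their nearest day 5 peaks lay 9.35 and 4.21 kb from a gene end. MRPL44, which resembles a ribonuclease, had its nearest peak 1294 kb away in both libraries, the farthest of any member at day 5. MRPL46 and MRPS11 are the only divergent pair of members, with starts 320 bp apart, and neither list has a peak at their shared promoter. Over all members without a peak, 31 at day 5 and 52 without doxycycline, the nearest peak lay a median of 42.6 and 78.0 kb away.

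Few genes sat near the limit of 1 kb. Among those counted, the peaks of MRPS2 came closest to the limit, at 374 bp (day 5) and 703 bp (without doxycycline) from a gene end, followed by those of MRPL36 at 281 and 77 bp and of MRPS30 at 0 and 237 bp. Just outside it, MRPL24 had peaks 1257 bp (day 5) and 1359 bp (without doxycycline) from a gene end, MRPL20 had one 1611 bp away at day 5, and MRPL22 had peaks 2791 and 2796 bp away. MRPL24 is a case of annotation: its start in the promoter table lies 1628 bp inside the gene span, and the peaks, with 16 fragments (9.15 to 26.0) in each library, have summits 91 bp (day 5) and 54 bp (without doxycycline) downstream of that start. The starts of MRPS2 and MRPL36 in that table also lie inside their gene spans. The MRPS2 summits were -3 bp (day 5) and 7 bp (without doxycycline) from its start, and the MRPL36 summits -844 and -1270 bp. Counted from starts alone, MRPL24 had a peak in both lists and MRPL36 lost its peak without doxycycline.

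**Figure D3:**
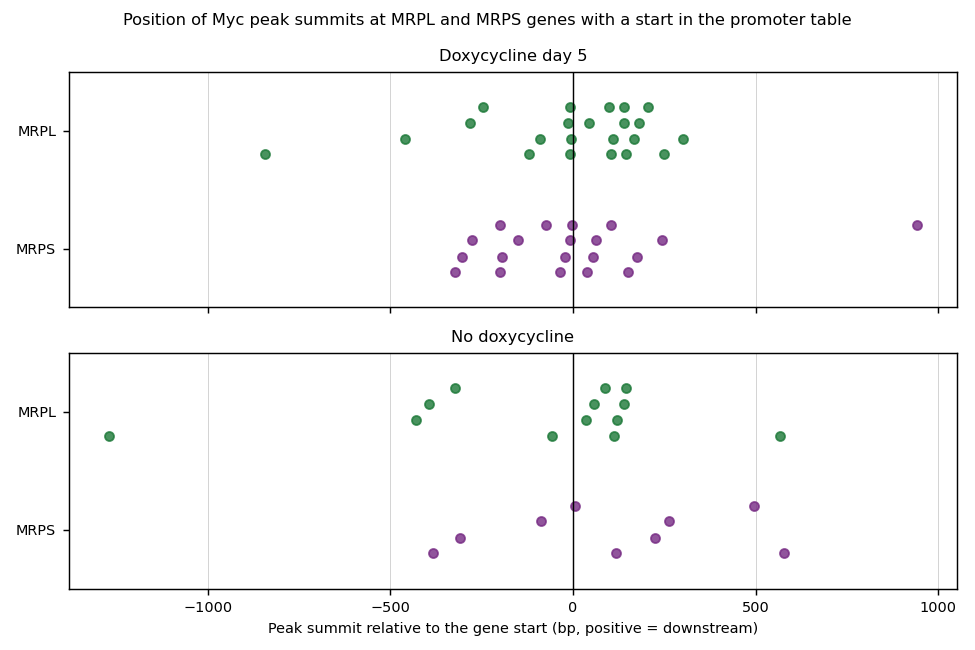
Position of the summit of each gene's strongest peak relative to the start in the promoter table (x axis, bp, positive is downstream), for MRPL (green) and MRPS (purple) genes at day 5 (top) and without doxycycline (bottom); the vertical spread within a group only separates points. At day 5, 40 of 42 summits lie within 500 bp of the start, and without doxycycline 19 of 22.

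The peaks sat at gene starts. Of the 42 members with a day 5 peak and a start in the promoter table, 40 had the summit within 500 bp of it (95.2%), beside 78.6% of all coding genes with a peak and a start. Without doxycycline it was 19 of 22 (86.4%), beside 78.2%. The median summit was -3.50 bp from the start at day 5 (quartiles -143 and 140) and 72.5 bp without doxycycline (-254 and 144). MRPS30, 941 bp downstream, and MRPL36, -844 bp from its start and nearest to NDUFS6, a complex I gene, were the 2 beyond 500 bp at day 5.

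Many of these genes lie close to another gene. An end of another protein-coding gene lay within 1 kb of a gene end for 42 of the 77 members (54.5%), beside 28.5% of all coding genes. Of the 42, 28 had a peak at day 5 (66.7%, interval 50.5% to 80.4%) and 15 without doxycycline (35.7%). Of the 35 members with no such neighbour, 18 had a peak at day 5 (51.4%, interval 34.0% to 68.6%) and 10 without doxycycline (28.6%, interval 14.6% to 46.3%). Among all coding genes the shares were 44.8% and 25.2% with a neighbour and 20.4% and 10.2% without. The members' intervals lay above these shares except for members with a neighbour without doxycycline, whose interval of 21.6% to 52.0% holds the 25.2%. The peak itself reached within 1 kb of another coding gene's end for 25 of 46 members at day 5 and 13 of 25 without doxycycline, and the summit lay nearer another gene's end for 8 members at day 5 and 3 without doxycycline.

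The difference between MRPL and MRPS at day 5 was present in both classes. With a neighbour, 17 of 28 MRPL genes (60.7%) and 11 of 14 MRPS genes (78.6%) had a day 5 peak. Without one, 8 of 21 MRPL genes (38.1%) and 10 of 14 MRPS genes (71.4%) did. The intervals of these small groups are wide, 18.1% to 61.6% and 41.9% to 91.6% for the genes without a neighbour, and they overlap.

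**Figure D4:**
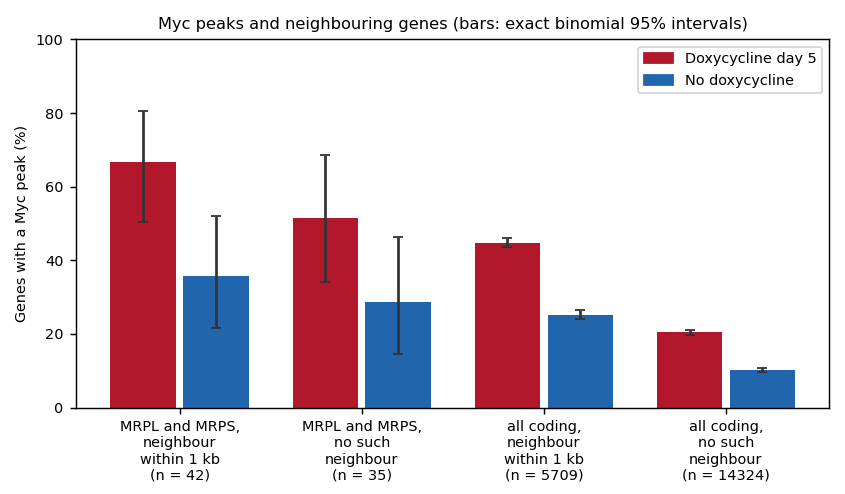
Share of genes with a Myc peak (y axis, %) for MRPL and MRPS genes and for all protein-coding genes, split by whether an end of another coding gene lies within 1 kb, at day 5 (red) and without doxycycline (blue); bars start at 0 and error bars are exact binomial 95% intervals over genes. Members without a neighbour stand at 51.4% and 28.6%, all coding genes without one at 20.4% and 10.2%.

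The members' promoters had a slightly lower GC content than coding genes at large. A promoter entry of 300 bases, 250 before and 50 after the start, was matched for 69 of the 77 members and 15842 coding genes; MRPL2, MRPL10, MRPL13, MRPL15, MRPL21, MRPL23, MRPL35 and MRPS28 had none. The median GC content was 60.3% for the members and 62.7% for all coding genes. Within the members' quartile range of 56.0% to 65.7% GC, 20 of 35 members had a day 5 peak (57.1%, interval 39.4% to 73.7%) and 11 had one without doxycycline (31.4%, interval 16.9% to 49.3%), beside 36.6% and 21.3% of 5004 other coding genes. The interval without doxycycline holds the share of the other genes.

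The 4 motifs searched on both strands of these 300 bases were the canonical E-box CACGTG, its variant CACGCG, the NRF1 core GCATGCGC and the ETS-type site CCGGAAGT. The letters of 1 motif can overlap those of another. CACGTG was in 6 members (8.70%), beside 8.88% of all promoters, and CACGCG was in 10 (14.5%), beside 14.8%. The NRF1 core was in 6 (8.70%, interval 3.26% to 18.0%), beside 4.26%, and the ETS-type site was in 11 (15.9%, interval 8.24% to 26.7%), beside 6.19%. The members thus held E-boxes about as often as other promoters, and ETS-type letters more often, with the interval above the share of all promoters. This was not particular to them: 9 of 63 promoters of cytosolic ribosomal protein genes held the ETS-type site (14.3%, interval 6.75% to 25.4%). The ETS-type site was in 9 of 42 MRPL promoters (21.4%, interval 10.3% to 36.8%) and 2 of 27 MRPS promoters (7.41%, interval 0.910% to 24.3%), the second near the share of all promoters.

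The 6 CACGTG matches are shown because Myc with MAX is known to bind these letters. Each is given in 30 bases of the gene's strand, 5′ to 3′, from RefSeq GRCh38.p14, with the match in capitals. They lie at chr1:54199985-54200014 (MRPL37, plus), chr4:83455867-83455896 (MRPS18C, plus), chr5:1799876-1799905 (MRPL36, minus), chr5:154940885-154940914 (MRPL22, plus), chr11:65121933-65121962 (MRPL49, plus) and chr17:38297023-38297052 (MRPL45, plus).
MRPS18C: aatcataagcctCACGTGacctgccgcgta
MRPL36: acgtgggcacgcCACGTGaccccccccccc
MRPL49: cggctCACGTGgggaaggccaggcctccca
MRPL45: cactcccgcgagCACGTGcgcgtcctcgct
MRPL37: tgcgcttcacctCACGTGaggattttccag
MRPL22: ttttcggaagccCACGTGctttcggccttt
Only some of these genes had a peak. MRPS18C and MRPL49 had one at day 5 only, with 6 and 9 fragments, MRPL36 had 13 in both libraries, MRPL45 had 7 without doxycycline only, and MRPL37 and MRPL22 had none in either.

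Of the CACGTG matches found, those in MRPS18C and MRPL45 lay nearest to a summit. Only the 250 bases before a start and the 50 after it were searched. Many members' summits lay further downstream, with an upper quartile of 140 bp at day 5 and a median of 72.5 bp without doxycycline. An E-box under those summits could not be found, so how often E-box letters and summits coincide was not tested. In MRPS18C the match lay 24.5 bp from the day 5 summit, and in MRPL45 74.5 bp from the summit without doxycycline. In MRPL49 it lay 422.5 bp and in MRPL36 790.5 bp from the day 5 summit. The MRPS18C summit lay nearer an end of HELQ, whose start is 175 bp from that of MRPS18C on the other strand. Its peak may therefore belong to either gene. Of the 6 members with CACGTG, 3 had a peak at day 5 and 2 without doxycycline. Of the 63 members without it, 39 had a peak at day 5 (61.9%) and 20 without doxycycline (31.7%). Among all coding genes the shares were 43.8% and 26.9% with CACGTG and 28.0% and 14.6% without it. The 6 members are too few to place beside that difference.

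The NRF1 core lay close to a summit in MRPL32, and MRPL17 held it 3 times, so a stretch of each is shown with the matches in capitals. They lie at chr7:42932296-42932375 (MRPL32, plus strand, the last 80 bases before the start) and chr11:6683361-6683440 (MRPL17, minus strand), from the same RefSeq table.
MRPL32: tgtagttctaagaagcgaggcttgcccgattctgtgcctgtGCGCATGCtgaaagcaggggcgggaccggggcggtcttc
MRPL17: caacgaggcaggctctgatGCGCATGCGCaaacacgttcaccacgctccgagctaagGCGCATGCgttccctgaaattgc
MRPL32 had 16 fragments at day 5 and 11 without doxycycline, and its match lay 22.5 bp from the day 5 summit and 602.5 bp from the summit without doxycycline. PSMA2, a proteasome subunit gene, starts 202 bp away on the other strand. In MRPL17 the nearest match lay 97.5 bp from the summit without doxycycline, and 2 of its 3 matches overlap, 1 on each strand.

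Genes that work with this ribosome had peaks at shares like those of its proteins. Of 28 genes for its assembly and RNA modification, 19 had a peak at day 5 (67.9%, interval 47.6% to 84.1%) and 12 without doxycycline (42.9%). TFB1M, which methylates the small subunit's RNA, had 40 fragments at day 5 and 42 without doxycycline, more than any MRPL or MRPS gene in either library. RPUSD4, a pseudouridine synthase, had 25 and 29, and MTERF3 had 31 and 19. FASTKD2 and NGRN, with 6 and 5 fragments, were listed without doxycycline only.

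Of 16 mitochondrial translation factors and related genes, 10 had a peak at day 5 (62.5%, interval 35.4% to 84.8%) and 6 without doxycycline (37.5%). GUF1 had 13 fragments at day 5 and 18 without doxycycline, and GFM2, a factor for ribosome recycling, had 14 and 8. TUFM, the mitochondrial elongation factor Tu, and LRPPRC, which stabilises mitochondrial messenger RNAs, had no peak in either list. Of 5 mitoribosomal proteins with other names, PTCD3 had 30 fragments at day 5 and 33 without doxycycline, DAP3 had 16 at day 5 only, and AURKAIP1, CHCHD1 and GADD45GIP1 had no peak.

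The cytosolic ribosome gives the nearest parallel. Of 79 cytosolic ribosomal protein genes, 59 had a peak at day 5 (74.7%, interval 63.6% to 83.8%) and 44 without doxycycline (55.7%, interval 44.1% to 66.9%). The mitochondrial set was lower in both libraries, and without doxycycline the 2 intervals only touch, 22.2% to 44.1% for the mitochondrial genes. The median peak of a cytosolic ribosomal protein gene had 20 fragments at day 5 and 15.5 without doxycycline, against 12.5 and 10 for the mitochondrial genes. Of the 37 complex I subunit genes, whose proteins also serve the respiratory chain, 22 (59.5%) and 12 (32.4%) had a peak, near the shares of the mitochondrial ribosomal protein genes. Of these lists, FAU shares a promoter region with MRPL49, and the MRPL36 peaks lie nearest to NDUFS6, so the sets are not fully separate.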

How the data were processed

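Myc CUT&Tag peak lists of 2 of the 24 samples, grouped by their titles, were used, and the other 22 were not analysed here. Trim Galore, Bowtie2, deepTools and MACS2, with build hg38, are named per the submitters' processing notes. Versions, settings and any IgG control in the calls: not given in the sources used here. Peaks were called per library, per the file contents. The score that the authors deposited is the integer part of 10 times the −log10 q-value. The deposited fold is a ratio, summit over local background. The authors also deposited −log10 p-values and −log10 q-values, the q-values of at least 1.33, with peak positions and summit offsets in bp.

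Summit fragments are the whole number for which fold equals (fragments + 1)/(background + 1) and the deposited −log10 p-value is the Poisson tail, recovered for 100% of peaks within 0.001. A deeper library can call more peaks at the same sites. Of several peaks at a gene, that with the highest −log10 q-value was used. Gene spans, starts and promoters came from RefSeq GRCh38.p14, with 1-based coordinates. For simulated peaks built with the same formula, fragments were recovered for 100% of 6727 and 3472. Simulated peaks placed inside the 1 kb window marked 100% of 200 genes in each run. These outcomes follow from how the simulations were built, so they check the code only. Python 3.11.15, pandas 2.3.3, numpy 2.4.6, scipy 1.17.1 and matplotlib 3.10.9 were used.

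Members, gene lists and the rule for named genes were chosen with earlier results of these data known. By rank of the day 5 peak, 6 MRPL and 4 MRPS genes of both lists and 5 MRPL and 3 MRPS genes of day 5 only were named, with those without doxycycline only, those nearest the 1 kb limit and members of well-known role. Genes with CACGTG or NRF1 letters, extremes and members not higher at day 5 were named after their values were seen. Alternatives were windows of 500 and 2500 bp, summits in place of peak edges, starts only, equal numbers of peaks, stricter peaks, genes without shared peaks, subunit by structure and overlap of the 2 lists' peaks.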

Additional observations from a re-analysis of the deposited data

How the results depend on the processing

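With 1 library per condition, no replicate could be left out. No paired analysis was possible because the 2 libraries carry no replicate numbers. Of 88 alternative values, 71 stayed within the interval, the quartiles or 1.5 times the count of the value reported, and 17 moved. With equal numbers of peaks, the day 5 shares were 37.66% of all members, 32.65% of MRPL and 46.43% of MRPS, beside 15.7% of all coding genes, with 12 members at day 5 only and 8 without doxycycline only. The higher-ranked 50% of each list gave the same 3 day 5 shares, beside 15.3% of all coding genes. Without doxycycline it gave 20.78% of members and 14.29% of MRPS, beside 8.02% of all coding genes, with 15 members at day 5 only and 2 without doxycycline only. Leaving out the 26 genes whose peak also reaches another coding gene by construction removes genes with a peak only. It gave 41.18% of members and 28.12% of MRPL at day 5, 21.57% of members without doxycycline and 13 genes at day 5 only. The same exclusion was not made for all coding genes, so these shares have no like background beside them. With reciprocal overlap of 50%, 11 members with a peak without doxycycline had no matching day 5 peak. For all coding genes, the shares listed at day 5 only or without doxycycline only were not counted under these settings. The counts of such members here have no background share and are not a result about them. The number of genes listed at day 5 only thus depends on how many peaks each list holds, and summits of 5 to 12 fragments carry wide counting intervals.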

Other observations

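Pseudogenes and long non-coding genes named after members were also counted, without a share over all such genes to set beside them. Of 106 annotated pseudogenes of MRPL and MRPS genes, 1 had a peak in each list, MRPL45P2. Of 7 long non-coding genes named after members, 4 had a peak at day 5 and 3 without doxycycline. MRPS9-AS2, MRPS30-DT and MRPS35-DT were listed in both libraries and MRPL20-AS1 at day 5 only. The first 3 end near the starts of MRPS9, MRPS30 and MRPS35, so the same peaks can count for both genes.

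Members with peaks lay on most chromosomes. All 4 members on chromosome 19 had a peak in both libraries, whereas 31.4% of the coding genes of that chromosome had one at day 5 and 18.7% without doxycycline. Of the 8 members on chromosome 1, 3 had a peak at day 5 and none without doxycycline, beside 29.0% and 16.3% of its coding genes. These are small numbers and were not tested.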
